A study of Mus musculus with 18 samples.

Results

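The 36 genes described here encode the contractile machinery of skeletal muscle, its calcium handling and the enzymes that supply it with energy. They were taken by symbol from the gene table of a study of B16F10 tumors, and all 36 were found among its 41079 genes. By role they fall into 5 genes of the thin filament, 9 of the thick filament, 9 of the Z disc and costamere, 7 of calcium handling and 6 of energy supply. The rule that selects them names genes by function and uses no measured value, although it was set with earlier results of these data known.

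The 18 libraries were poly(A) RNA-seq of whole tumors. B16F10 is a mouse melanoma cell line, and 100000 of its cells were placed under the skin of the right flank; the hosts were C57BL/6 females. From day 6, at about 50 mm3, each tumor was injected directly every 2 days, and it was collected 48 h after the last dose. There were 6 groups of 3 tumors. The PBS group received buffer. Free PS473 was a Pistol ribozyme, a small RNA that cuts other RNA, directed at the PD-L1 message and given without a carrier. PS473@CPs was the same ribozyme with cationic polymers. NKMOF-101-[Mn] was the manganese metal-organic framework carrier alone, M5@NKMOF-101-[Mn] was the carrier with an inactive mutant of the ribozyme, and PS473@NKMOF-101-[Mn] was the carrier with the active one. The titles of the 3 tumors of this last group name NKMOF-102, whereas its treatment text and the series design name NKMOF-101. All tumors came from 1 cell line in 1 strain and sex, so the replicates are tumors and the host contributes every tissue other than the melanoma.

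A skeletal muscle fiber shortens when myosin of the thick filament pulls on actin of the thin filament, within repeating units called sarcomeres whose ends are the Z discs. Calcium released from the sarcoplasmic reticulum starts each contraction by binding troponin, and a calcium pump returns it to the store. Fibers differ in the myosin heavy chain they use: Myh7 marks slow fibers and Myh2, Myh1 and Myh4 mark fast fibers of types IIa, IIx and IIb. Melanoma cells are not muscle, and a sheet of striated muscle lies under the skin of the mouse flank.

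Depth, recovered from the steps between low values, was 17212000 to 28401000 fragments per tumor, and no pair of tumors held identical values. Levels are FPKM, fragments per kilobase of gene and per 1000000 fragments. The melanoma label held in every tumor: the 10 pigment genes of a melanoma list had a mean log2(FPKM + 1) of 7.82 to 8.62, led by Dct, which ranged from 2087 to 3416 FPKM, Pmel, from 893 to 1836, and Tyrp1, from 702 to 1315.

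The contractile genes were scarce next to these and very uneven between tumors. Together the 36 genes took 0.0216% to 0.0438% of a tumor's fragments, and without the single gene Eno3 they took 0.00334% to 0.0251%. Of the 36 genes, 10 averaged 1 FPKM or more over the tumors, and 17 did not reach 1 FPKM in any tumor. In 19 genes all tumors had a value above 0, and 17 were at 0 in at least 1 tumor. In a bulk sample, fewer muscle fibers and less RNA per fiber cannot be told apart.

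**Figure D1:**
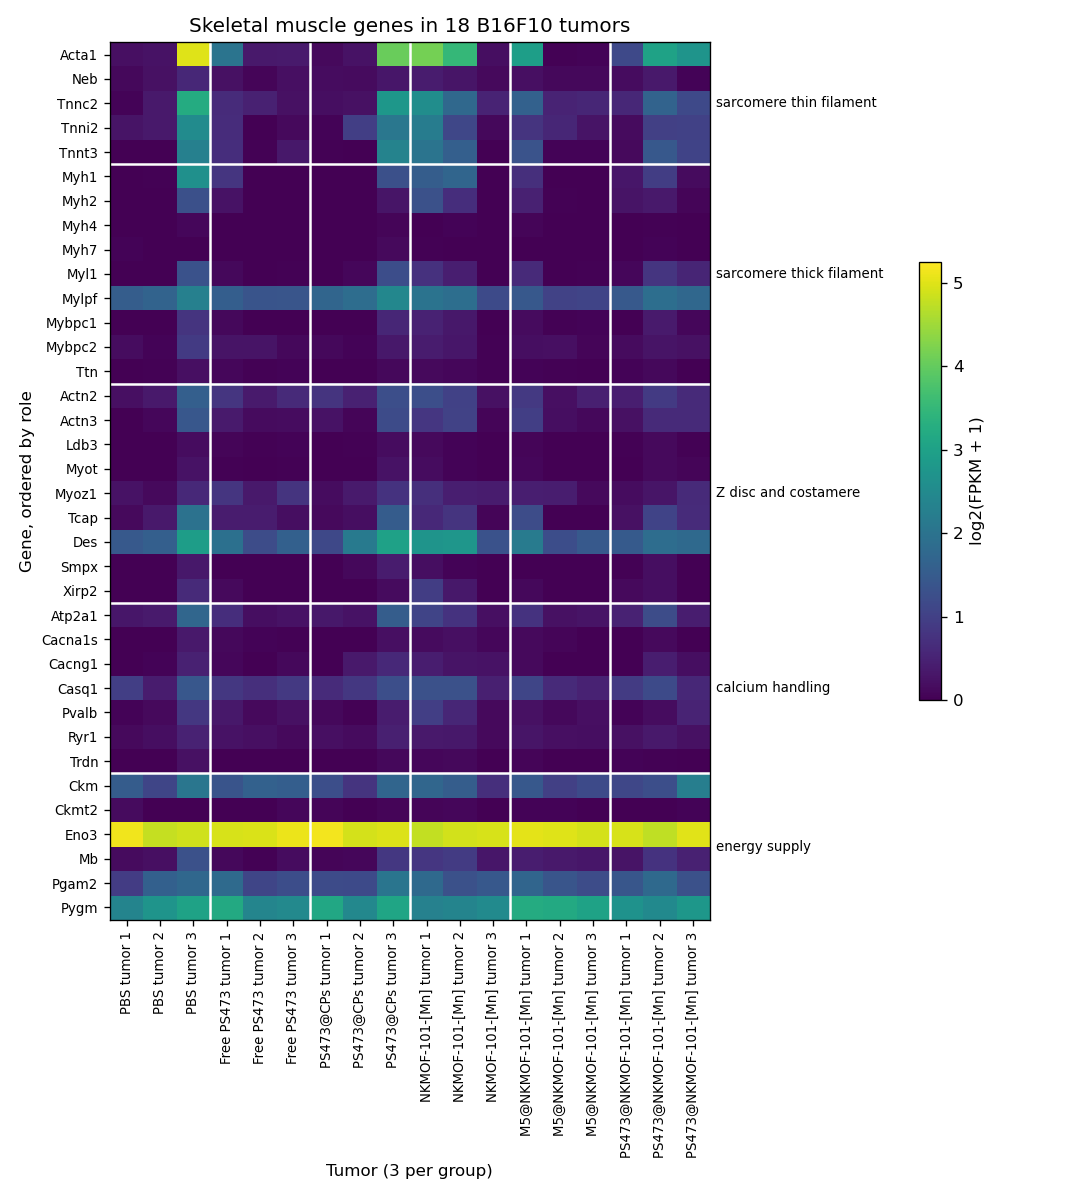
Level of each of the 36 genes (rows, ordered by role) in each of the 18 tumors (columns, 3 per group, white lines between groups) as log2(FPKM + 1), color scale at right. PBS tumor 3, PS473@CPs tumor 3 and NKMOF-101-[Mn] tumors 1 and 2 stand out across the thin filament genes, whereas Eno3 and Pygm are at a similar color in all columns.

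The thin filament genes gave the widest differences. Acta1 encodes skeletal alpha-actin, the filament itself. Its level was 0.159, 0.196 and 30.9 FPKM in the PBS tumors. It was 3.02, 0.279 and 0.301 FPKM with Free PS473. It was 0.0947, 0.195 and 15.6 FPKM with PS473@CPs. The tumors given carrier alone spread as far, from 0.143 to 16.9 FPKM, and the third tumor was at 10.4. Under M5@NKMOF-101-[Mn] the levels were 6.73, 0.0316 and 0.0321 FPKM, and under PS473@NKMOF-101-[Mn] they were 1.22, 7.16 and 5.54 FPKM. Acta1 was thus below 0.5 FPKM in 9 tumors and above 1 FPKM in the other 9, and each group held at least 1 tumor of the upper kind. PS473@NKMOF-101-[Mn] was the group in which no tumor was below 1 FPKM, and its values lay inside the range of the PBS tumors. The highest tumor was at 976 times the lowest.

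The troponins, the calcium-sensing complex on the thin filament, had their 3 highest levels in the same 3 tumors as Acta1: PBS tumor 3, PS473@CPs tumor 3 and NKMOF-101-[Mn] tumor 1. Tnnc2, the calcium-binding subunit of fast fibers, ranged from 0.0360 FPKM in PBS tumor 1 to 8.31 FPKM in PBS tumor 3, which was 17.0 times its median. Tnni2, the inhibitory subunit, ranged from 0 to 4.82 FPKM, again highest in PBS tumor 3. Tnnt3, which ties the complex to tropomyosin, was at 0 in 4 tumors and reached 4.08 FPKM in PS473@CPs tumor 3, ahead of 3.89 FPKM in PBS tumor 3. Neb encodes nebulin, the ruler along the thin filament, and it stayed between 0.0373 and 0.498 FPKM.

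**Figure D2:**
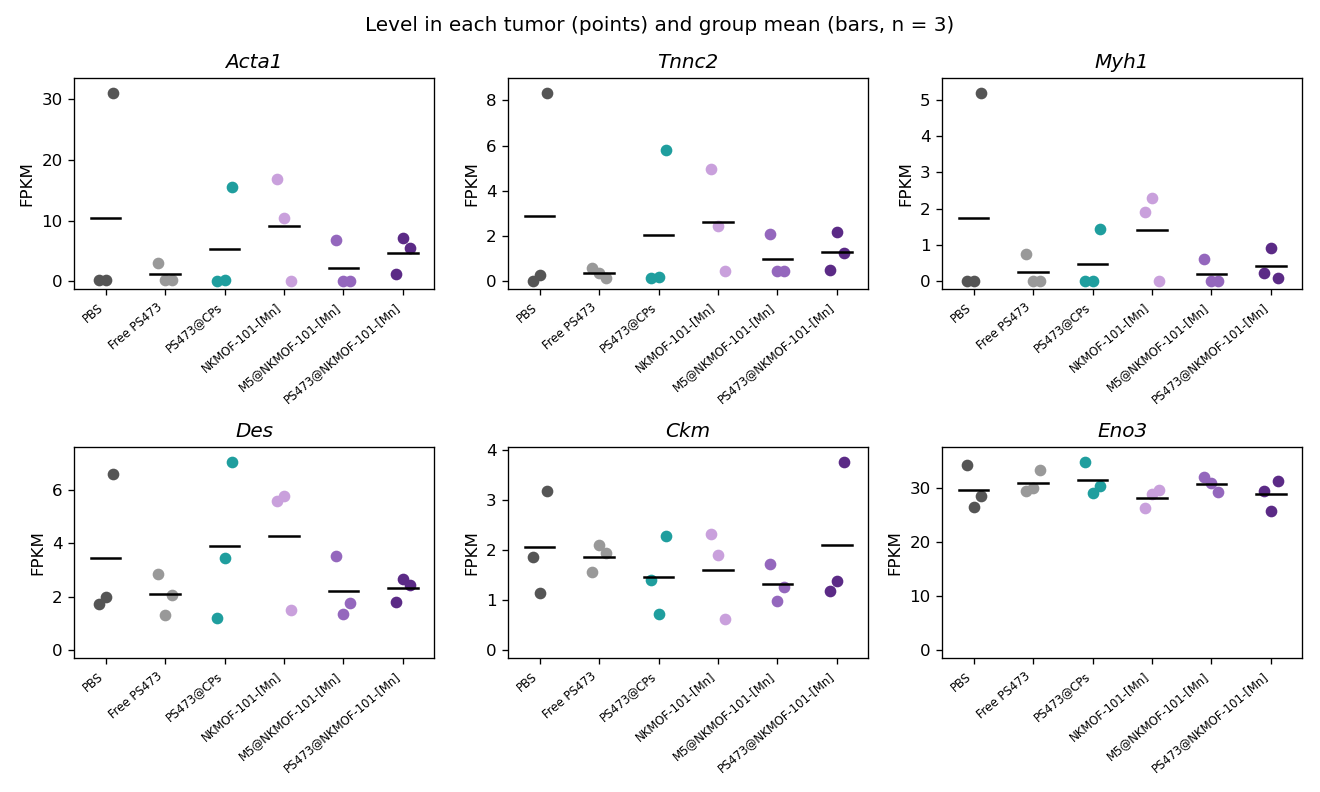
FPKM (vertical axis, linear, a separate scale for each gene) of 6 of the genes in each of the 6 groups (horizontal axis); points are tumors in the order 1 to 3 and bars are group means (n = 3). Within PBS, Acta1 was at 0.159, 0.196 and 30.9, so the mean of 10.4 rests on 1 tumor, while Eno3 stayed between 25.7 and 34.7 throughout.

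Promoter sequences are shown for 3 genes that were high in the same tumors (Acta1, Tnnc2 and Myh1) and for 2 energy genes that had a value in all tumors (Ckm and Eno3). Each is the 250 bases before the annotated start, from RefSeq on build GRCm38.p6, matched by symbol, since the submitters' processing notes name GRCm39. The windows are Acta1 at chr8:123894776-123895025 (minus strand), Tnnc2 at chr2:164779735-164779984 (minus strand), Myh1 at chr11:67199852-67200101 (plus strand), Ckm at chr7:19410844-19411093 (plus strand) and Eno3 at chr11:70656926-70657175 (plus strand). Capitals mark matches to TATAAA, to the E-box CANNTG, which muscle-determining factors bind, to the CArG box, which serum response factor binds, or to the MEF2 box of the factor of that name.
Acta1: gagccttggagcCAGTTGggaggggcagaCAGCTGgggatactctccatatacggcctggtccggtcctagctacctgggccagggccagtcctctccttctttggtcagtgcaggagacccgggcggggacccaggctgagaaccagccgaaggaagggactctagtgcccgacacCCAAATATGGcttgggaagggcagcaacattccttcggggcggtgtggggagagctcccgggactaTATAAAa
Tnnc2: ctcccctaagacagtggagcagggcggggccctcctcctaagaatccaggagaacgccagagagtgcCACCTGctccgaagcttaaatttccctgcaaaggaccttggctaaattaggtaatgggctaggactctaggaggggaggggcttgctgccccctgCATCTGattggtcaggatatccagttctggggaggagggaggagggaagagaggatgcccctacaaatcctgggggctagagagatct
Myh1: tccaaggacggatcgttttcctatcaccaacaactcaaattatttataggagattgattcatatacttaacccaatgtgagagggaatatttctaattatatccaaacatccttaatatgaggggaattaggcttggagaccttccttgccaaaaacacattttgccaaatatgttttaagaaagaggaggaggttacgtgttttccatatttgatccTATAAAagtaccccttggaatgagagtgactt
Ckm: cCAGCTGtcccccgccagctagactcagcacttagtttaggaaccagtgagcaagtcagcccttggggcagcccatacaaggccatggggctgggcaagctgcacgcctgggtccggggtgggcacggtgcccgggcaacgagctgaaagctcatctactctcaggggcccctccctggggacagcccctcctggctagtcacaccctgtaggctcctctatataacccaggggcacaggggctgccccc
Eno3: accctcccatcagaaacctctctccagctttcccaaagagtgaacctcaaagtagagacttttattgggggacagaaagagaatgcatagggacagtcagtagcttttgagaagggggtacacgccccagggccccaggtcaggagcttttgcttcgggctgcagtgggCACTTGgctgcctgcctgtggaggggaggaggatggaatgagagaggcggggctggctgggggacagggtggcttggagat
Of the 36 genes, 27 had a promoter in the table, in 32 windows. The E-box, searched on both strands, was in 25 of these 32 windows (78.1%) and in 66.2% of all 32851 promoters. The CArG box, on both strands, was in 4 windows (12.5%), of Acta1, Ldb3 and Myh4, and in 1.47% of all promoters. The MEF2 box, on both strands, was in 2 windows (6.25%), of Ttn and Xirp2, and in 0.508% of all. TATAAA, on the strand of the gene, was in 3 windows (9.38%), of Acta1, Myh1 and Myh4, and in 7.59% of all. No capitalized motifs overlap in the sequences printed. These matches describe the letters of the windows and are not evidence of binding.

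Among the myosin heavy chain genes of the thick filament, the fast IIx myosin Myh1 was the most abundant, with a mean of 0.754 FPKM. In the PBS tumors it was at 0, 0.0244 and 5.18 FPKM. It was at 0.768, 0.00928 and 0.00751 FPKM with Free PS473, and at 0, 0.00809 and 1.45 FPKM with PS473@CPs. It was at 1.92, 2.29 and 0 FPKM with NKMOF-101-[Mn]. With M5@NKMOF-101-[Mn] it was at 0.629, 0 and 0.00401 FPKM, and with PS473@NKMOF-101-[Mn] at 0.238, 0.929 and 0.109 FPKM. The 9 tumors above 1 FPKM for Acta1 also held the 9 highest Myh1 levels.

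The IIa myosin Myh2 was lower. Its levels were 0, 0.00843 and 1.42 FPKM with PBS, 0.196, 0.00641 and 0.00777 FPKM with Free PS473, and 0, 0 and 0.223 FPKM with PS473@CPs. They were 1.48, 0.601 and 0.00463 FPKM with NKMOF-101-[Mn], 0.401, 0.0286 and 0.00415 FPKM with M5@NKMOF-101-[Mn], and 0.205, 0.282 and 0.0523 FPKM with PS473@NKMOF-101-[Mn]. Its highest tumor was NKMOF-101-[Mn] tumor 1, not PBS tumor 3.

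The IIb and slow myosins were close to the limit of detection. Myh4 was at 0 in 11 tumors and was found in PBS tumor 3 (0.0696 FPKM), Free PS473 tumor 2 (0.00323), PS473@CPs tumor 3 (0.0525), M5@NKMOF-101-[Mn] tumor 1 (0.0529), NKMOF-101-[Mn] tumor 2 (0.0373) and PS473@NKMOF-101-[Mn] tumors 2 and 3 (0.0236 and 0.0162). Myh7 was at 0 in 10 tumors. It was found in PBS tumor 1 (0.0363 FPKM), Free PS473 tumor 2 (0.00567), PS473@CPs tumors 2 and 3 (0.00593 and 0.0948), M5@NKMOF-101-[Mn] tumors 1 and 3 (0.00423 and 0.0147), NKMOF-101-[Mn] tumor 1 (0.0178) and PS473@NKMOF-101-[Mn] tumor 2 (0.0363).

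The estimated mixture of the 4 myosin genes differed between tumors. Shares are of estimated fragments rounded to whole ones. The 95% Wilson intervals treat these as whole counts, which they need not be, and cover counting error only. They are given as a guide and are not a test. Myh1 made up 78.2% (75.3 to 80.9) of 818 fragments in PBS tumor 3, 79.9% (75.2 to 83.9) of 324 in PS473@CPs tumor 3 and 78.9% (74.6 to 82.6) of 407 in NKMOF-101-[Mn] tumor 2. In NKMOF-101-[Mn] tumor 1 it made up 56.9% (52.2 to 61.5) of 434 fragments, and Myh2 made up 42.4% (37.8 to 47.1), against 19.9% (16.3 to 24.1) in tumor 2 of the same group. Myh2 was also at 36.2% (28.0 to 45.3) in M5@NKMOF-101-[Mn] tumor 1 and 45.5% (34.0 to 57.4) in PS473@NKMOF-101-[Mn] tumor 1, and lowest among the tumors plotted in PS473@CPs tumor 3, at 11.7% (8.67 to 15.7). That last tumor also had the largest Myh7 share of those plotted, 5.56% (3.54 to 8.61), while in PBS tumor 3 Myh7 had 0 of 818 fragments, with an upper Wilson limit of 0.467% (a floor of 3 fragments allows up to 0.367%). Myh4 took 0.978% (0.496 to 1.92) in PBS tumor 3. Of the 50-base windows of the Myh1 transcript, 19.7% also occur in Myh2 and 26.1% in any of its close relatives, so fragments of these genes may have been divided among them in counting.

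**Figure D3:**
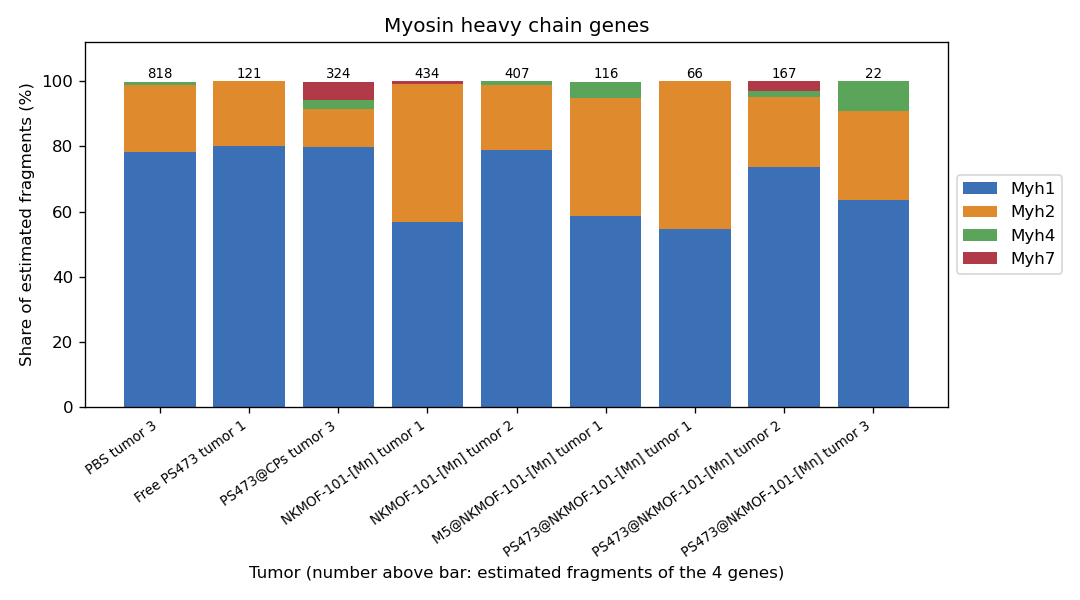
Share of estimated fragments (vertical axis, percent) held by Myh1, Myh2, Myh4 and Myh7 in the 9 tumors with at least 20 fragments of these genes (horizontal axis); the number above each bar is their total. Myh1 is the largest part of each bar, from 54.5% to 80.2%, and the Myh2 part varies from 11.7% to 45.5%.

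The remaining thick filament genes covered the light chains, the binding proteins and titin. Myl1, the essential light chain of fast fibers, was at 0 in 4 tumors and reached 1.49 FPKM in PBS tumor 3. Mybpc1 and Mybpc2, the slow and fast myosin binding proteins, reached 0.719 and 0.868 FPKM, both in PBS tumor 3. Mylpf, the regulatory light chain of fast fibers, did not fall to 0 and was between 1.05 FPKM in M5@NKMOF-101-[Mn] tumor 2 and 4.34 FPKM in PS473@CPs tumor 3.

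Ttn, the spring that spans the sarcomere from Z disc to midline, was low per base. Its levels were 0.0171, 0.0261 and 0.166 FPKM with PBS, 0.0716, 0.0265 and 0.0352 FPKM with Free PS473, and 0.0162, 0.0130 and 0.0866 FPKM with PS473@CPs. They were 0.0925, 0.0725 and 0.0262 FPKM with NKMOF-101-[Mn], 0.0358, 0.0281 and 0.0145 FPKM with M5@NKMOF-101-[Mn], and 0.0372, 0.0829 and 0.00448 FPKM with PS473@NKMOF-101-[Mn]. The gene is listed at 125662 bases, and PS473@NKMOF-101-[Mn] tumor 3 had its lowest value although its Acta1 was at 5.54 FPKM.

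At the Z disc, where filaments of neighboring sarcomeres are anchored, most genes were again highest in PBS tumor 3 or PS473@CPs tumor 3. Des encodes desmin, the intermediate filament that links Z discs to one another. Its levels were 1.74, 2.01 and 6.58 FPKM with PBS, 2.85, 1.34 and 2.08 FPKM with Free PS473, and 1.21, 3.44 and 7.02 FPKM with PS473@CPs. They were 5.56, 5.75 and 1.51 FPKM with NKMOF-101-[Mn], 3.54, 1.37 and 1.77 FPKM with M5@NKMOF-101-[Mn], and 1.81, 2.69 and 2.45 FPKM with PS473@NKMOF-101-[Mn]. PS473@CPs tumor 2 had 3.44 FPKM of Des with only 0.195 FPKM of Acta1, and it was also the tumor with the highest smooth muscle and pericyte score, 2.91. Smooth muscle uses Des as well, and its part in the Des levels was not tested.

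Actn2 and Actn3, the alpha-actinins that cross-link actin at the Z disc, ran from 0.154 to 1.98 FPKM and from 0.0173 to 1.68 FPKM. Tcap, the cap on the titin end, reached 2.93 FPKM in PBS tumor 3. Ldb3 and Myot, Z disc scaffolds, did not exceed 0.132 and 0.197 FPKM. Smpx, a small cytoskeletal protein of striated muscle, was at 0 in 11 tumors and reached 0.323 FPKM. Xirp2, an actin-binding repeat protein, reached 0.942 FPKM in NKMOF-101-[Mn] tumor 1. Myoz1, a calcineurin-binding Z disc protein of fast fibers, departed from the rest: its highest levels were in Free PS473 tumors 1 and 3, at 0.750 and 0.713 FPKM.

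Of the calcium handling genes, Atp2a1 encodes the reticulum's calcium pump of fast fibers. It was at 0.240, 0.302 and 2.32 FPKM with PBS, 0.604, 0.150 and 0.196 FPKM with Free PS473, and 0.267, 0.187 and 1.92 FPKM with PS473@CPs. It was at 1.10, 0.706 and 0.159 FPKM with NKMOF-101-[Mn], 0.688, 0.170 and 0.216 FPKM with M5@NKMOF-101-[Mn], and 0.415, 1.34 and 0.338 FPKM with PS473@NKMOF-101-[Mn]. In descending order the highest tumors were PBS tumor 3, PS473@CPs tumor 3 and PS473@NKMOF-101-[Mn] tumor 2.

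Pvalb, the soluble calcium buffer of the fastest fibers, was at 0.0450, 0.0923 and 0.803 FPKM with PBS, 0.269, 0.105 and 0.170 FPKM with Free PS473, and 0.0893, 0.0183 and 0.333 FPKM with PS473@CPs. It was at 0.971, 0.486 and 0.101 FPKM with NKMOF-101-[Mn], 0.183, 0.0895 and 0.159 FPKM with M5@NKMOF-101-[Mn], and 0.0381, 0.128 and 0.440 FPKM with PS473@NKMOF-101-[Mn]. Here NKMOF-101-[Mn] tumor 1 was first.

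Ryr1, the calcium release channel, had the smallest ratio of highest to lowest tumor in this group, 4.28, and ran from 0.0959 to 0.410 FPKM. Casq1, the calcium store protein, was between 0.328 and 1.68 FPKM. The voltage sensor genes Cacna1s and Cacng1 reached 0.279 and 0.512 FPKM, and Trdn, which joins the channel to the store, reached 0.172 FPKM and was at 0 in 8 tumors.

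The energy supply genes differed less between tumors than Acta1, and Eno3 and Pygm were highest in other tumors than the sarcomere genes. As a mean log2(FPKM + 1) the 6 genes together were still highest in PBS tumor 3 (2.17) and PS473@CPs tumor 3 (2.13), and lowest in PS473@CPs tumor 2 (1.57). Ckm, the muscle creatine kinase that regenerates ATP, was at 1.86, 1.14 and 3.19 FPKM with PBS, 1.57, 2.10 and 1.95 FPKM with Free PS473, and 1.40, 0.720 and 2.30 FPKM with PS473@CPs. It was at 2.32, 1.90 and 0.626 FPKM with NKMOF-101-[Mn], 1.73, 0.993 and 1.27 FPKM with M5@NKMOF-101-[Mn], and 1.18, 1.40 and 3.76 FPKM with PS473@NKMOF-101-[Mn]. No tumor was at 0, the groups overlapped, and tumors with Acta1 below 0.5 FPKM had up to 2.10 FPKM of Ckm.

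Eno3, the muscle enolase of glycolysis, was the most abundant of the 36 genes per length and the most even, between 25.7 and 34.7 FPKM. PBS tumor 1 had 34.2 FPKM of Eno3 and 0.159 FPKM of Acta1, and PBS tumor 3 had 28.5 FPKM of Eno3 and 30.9 FPKM of Acta1. The gene length in the table, 6574 bases, is 4.20 times the longest coding transcript of Eno3 in GENCODE M21, 1564 bases, so a level per length depends on which transcript was meant. Pygm, the glycogen phosphorylase of muscle, was between 3.93 and 8.46 FPKM, and Pgam2, the muscle phosphoglycerate mutase, between 0.910 and 3.13 FPKM. Mb encodes myoglobin, the oxygen store, and followed the sarcomere more closely, from 0.0207 to 1.46 FPKM with PBS tumor 3 highest. Ckmt2, the mitochondrial creatine kinase of sarcomeric muscle, did not exceed 0.118 FPKM and was at 0 in 7 tumors.

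Across the 36 genes, 21 (58.3%) were highest in PBS tumor 3, against 4.26% of the 31286 genes with any value. PS473@CPs tumor 3 was highest for 7 (19.4%, against 2.27% of all genes) and NKMOF-101-[Mn] tumor 1 for 3 (8.33%, against 6.35%). Each of these tumors was among the 4 highest for at least 30 of the 36 genes, NKMOF-101-[Mn] tumor 2 was among them for 19 and PS473@NKMOF-101-[Mn] tumor 2 for 14. PS473@CPs tumor 3 was also the most deeply sequenced library, at 28401000 fragments, and the only one with a value above 0 for all 36 genes; PBS tumor 1 had the fewest, 25.

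The range between tumors was wide beside that of other genes. The highest tumor was at least 3 times the median in 28 of the 36 genes, 3 of which had a median of 0, and less than 2 times the median in 3, namely Eno3, Pgam2 and Pygm. Among the 10 genes averaging 1 FPKM or more, 5 had a highest tumor at 3 or more times the median, a ratio reached by 5.83% of the 12357 genes with such a mean. Some of these 10 passed that mean only through their high tumors, so the count describes them and tests nothing. Of the variance of log2(FPKM + 1), a median of 14.0% lay between group means over the 36 genes (2.22% to 51.5%). Over the 10 genes averaging 1 FPKM or more it was 15.8%, and over the 12357 genes 23.3%. Means of 3 tumors differ even without a group effect, and the shares were not corrected for this, so they are no measure of a treatment effect. In all 36 genes the widest range inside 1 group exceeded the range of the 6 group means. Means of 3 tumors spread less than single tumors, and this was not counted over all genes, so it describes the 36 genes and tests nothing.

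Differences between the groups were tested with limma over the 12357 genes averaging 1 FPKM or more, on log2(FPKM + 1), and a gene was called at a Benjamini-Hochberg adjusted p under 0.05 with a more than 2-fold change. The 10 genes that entered were Acta1, Tnnc2, Tnni2, Tnnt3, Mylpf, Des, Ckm, Eno3, Pgam2 and Pygm. For any difference among the 6 groups, 0 of the 10 were called by limma's F test, as were 0% of all genes, and 0 of the 10 had an unadjusted p under 0.05, against 1.99% of all genes. The smallest unadjusted p was 0.0535, for Mylpf, followed by 0.0596 for Pygm.

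The study's main question was what the loaded carrier PS473@NKMOF-101-[Mn] changed. Against PBS, 0 of the 10 genes were called (0% of all genes) and 0 had an unadjusted p under 0.05 (2.10% of all genes), with a median log2 fold change of -0.05 beside -0.01 over all genes. Against Free PS473, 0 were called (0% of all) and 0 passed the unadjusted threshold (4.98% of all), with a median of 0.19. Against PS473@CPs the counts were 0 (0% of all) and 0 (2.29% of all), with a median of -0.05. Against NKMOF-101-[Mn] they were 0 (0% of all) and 0 (2.30% of all), with a median of -0.16. Against M5@NKMOF-101-[Mn] 0 were called (0% of all) and 1, Pygm, had an unadjusted p under 0.05 (0.591% of all), with a median of 0.20.

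The other treatments were compared with PBS, and all of these comparisons share the PBS tumors. Free PS473 had 0 genes called (0% of all) and 0 at the unadjusted threshold (1.81% of all), with a median log2 fold change of -0.39 beside 0.03 over all genes. PS473@CPs had 0 called (0% of all) and 0 unadjusted (2.09% of all), with a median of 0.03. NKMOF-101-[Mn] had 0 called (0% of all) and 0 unadjusted (1.46% of all), with a median of 0.08. M5@NKMOF-101-[Mn] had 0 called (0% of all) and 1 unadjusted, Mylpf (1.51% of all), with a median of -0.32. Without PBS tumor 3 the median became 0.12 for Free PS473, 0.20 for M5@NKMOF-101-[Mn] and 0.23 for PS473@NKMOF-101-[Mn]. Fitted without the filter on low values, which let all 36 genes in, 0 of the 36 were called in each of the 9 comparisons, and the same 2 genes had an unadjusted p under 0.05. Each was 1 of 36 genes in its comparison, beside 2.47% (Pygm) and 3.48% (Mylpf) of the 31286 genes in that fit.

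**Figure D4:**
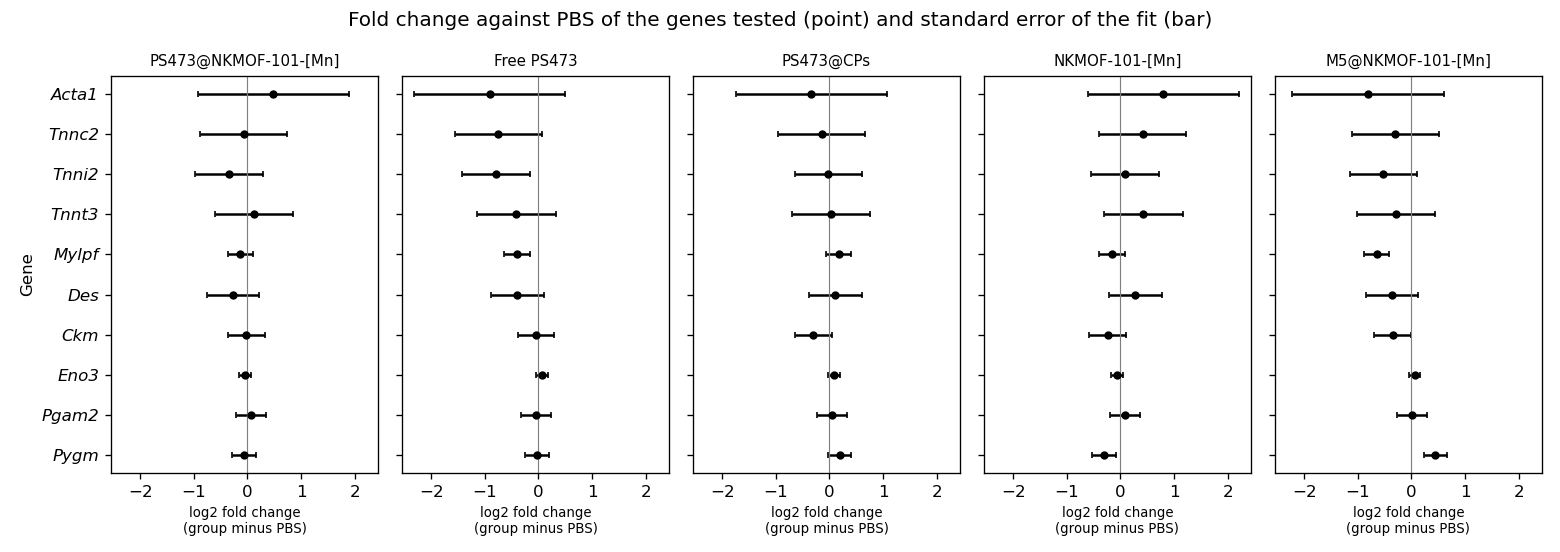
Log2 fold change against PBS on the log2(FPKM + 1) scale (horizontal axis, group minus PBS) of the 10 genes tested (vertical axis) in each of the 5 treated groups (panels); points are limma estimates and bars their standard errors. The bars of Acta1 are the longest, with a standard error of 1.41, and cross 0 in all panels.

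Acta1 shows what limits these tests. Its log2 fold change ran from -0.91 (Free PS473 against PBS) to 1.38 (PS473@NKMOF-101-[Mn] against Free PS473), and the standard error was 1.41 in each comparison, so that no estimate exceeded its error. An exact two-sided permutation test of 3 tumors against 3, whose smallest possible p is 0.10, gave p = 0.800 for PS473@NKMOF-101-[Mn] against PBS and p = 0.200 against Free PS473. Differences of this size were not detectable with 3 tumors a group, which is not evidence that the groups were alike.

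Mylpf and Pygm were the genes with the smallest unadjusted p. Mylpf was at 1.73, 1.05 and 1.12 FPKM in the M5@NKMOF-101-[Mn] tumors and at 1.93, 2.17 and 3.89 FPKM in the PBS tumors, which do not overlap. The log2 fold change was -0.65 with a standard error of 0.24 (limma, unadjusted p = 0.0179, adjusted p = 0.999), and the exact permutation p was 0.10. Pygm was at 5.36, 4.66 and 5.86 FPKM under PS473@NKMOF-101-[Mn] and at 8.46, 8.13 and 7.18 FPKM under M5@NKMOF-101-[Mn], ranges which do not overlap either. The log2 fold change was -0.51 with a standard error of 0.22 (limma, unadjusted p = 0.0352, adjusted p = 1.00), and the exact permutation p was again 0.10. The PBS tumors covered 4.17 to 7.13 FPKM of Pygm. Neither difference held after adjustment.

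Genes of related programs were examined from lists. Of 38 further genes of mature muscle fibers in the table, 6 were abundant enough to be tested, and 0 were called by limma in any comparison (0% of all genes). Among the most abundant, Trim63 (median 17.0 FPKM, lowest 9.57) and Tpm2 (0.476 to 16.9) encode a ubiquitin ligase of atrophy and a tropomyosin. Neither peaked with Acta1: Trim63 was highest in PS473@NKMOF-101-[Mn] tumor 1 and Tpm2 in PS473@CPs tumor 2. PBS tumor 3 was highest for 5 of the 38 and PS473@CPs tumor 3 for 7, and the mean log2(FPKM + 1) of the list peaked in these tumors too, at 0.67 and 0.68 with a lowest value of 0.45. Of 9 partners of slow fibers, PS473@CPs tumor 3 was highest for 4. The 3 most abundant were Atp2a2 (median 82.4 FPKM), a calcium pump that most cells use, Tpm3 (31.5 to 41.2) and the slow troponin Tnnt1 (0.226 to 1.46). Only 2 of the 9 were abundant enough to be tested, and 0 were called (0% of all genes).

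Genes of satellite cells, the stem cells of muscle, and of regenerating fibers were near 0, and none of the 12 reached the mean needed for the test. PS473@CPs tumor 3 was highest for 7 of the 12 and PBS tumor 3 for 0. The 3 most abundant were Cdh15, a cadherin of myoblasts (0.158 to 0.851 FPKM), the embryonic myosin Myh3 and the perinatal myosin Myh8. In PS473@CPs tumor 3 Myh3 was at 1.18 FPKM, with a median over all tumors of 0.200, and Myh8 at 1.01 FPKM, with a median of 0.0151. The differentiation factor Myog (0.809 FPKM) and the fusion protein Mymk (0.566 FPKM) peaked there too. Pax7, the defining factor of satellite cells, was at 0 in 16 tumors and at most at 0.0111 FPKM, or 3.50 fragments. In PBS tumor 3, where Acta1 was higher still, Myh3 had 34.5 estimated fragments of 19624000, against 203 of 28401000 in PS473@CPs tumor 3. Actc1, the cardiac actin of a 9-gene cardiac list that developing skeletal muscle also uses, was at 3.21 FPKM in PS473@CPs tumor 3 with a median of 0.277. The most abundant of that list were Nppb (0.856 to 8.23), Tnnt2 (0.317 to 5.19) and Nppa (0.0982 to 1.14). Only 2 of the 9 cardiac genes were abundant enough to be tested, and 0 were called (0% of all genes).

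The tumors also differed in other host tissues, and the skin epithelium genes did not rise and fall in step with Acta1. The 28 skin epithelium genes in the table had a mean log2(FPKM + 1) from 0.22 to 5.16, led by Krt14 (0 to 2058 FPKM), Lgals7 (6.80 to 1068) and Krt6a (0 to 894). The skin score was highest in PS473@CPs tumor 2 (5.16) and PBS tumor 2 (4.89), where Acta1 was at 0.195 and 0.196 FPKM. In PBS tumor 3 and NKMOF-101-[Mn] tumor 1 both were high, with skin scores of 3.95 and 4.22. In NKMOF-101-[Mn] tumor 2 Acta1 was at 10.4 FPKM with a skin score of 0.22 and Krt14 at 0. The first tumor of the M5@NKMOF-101-[Mn] group had 6.73 FPKM of Acta1, a skin score of 0.23 and Krt14 at 0. Since Acta1 fell into 2 separate ranges, no correlation over all tumors is given. The part of host tissue in the level of the muscle genes was not tested.

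**Figure D5:**
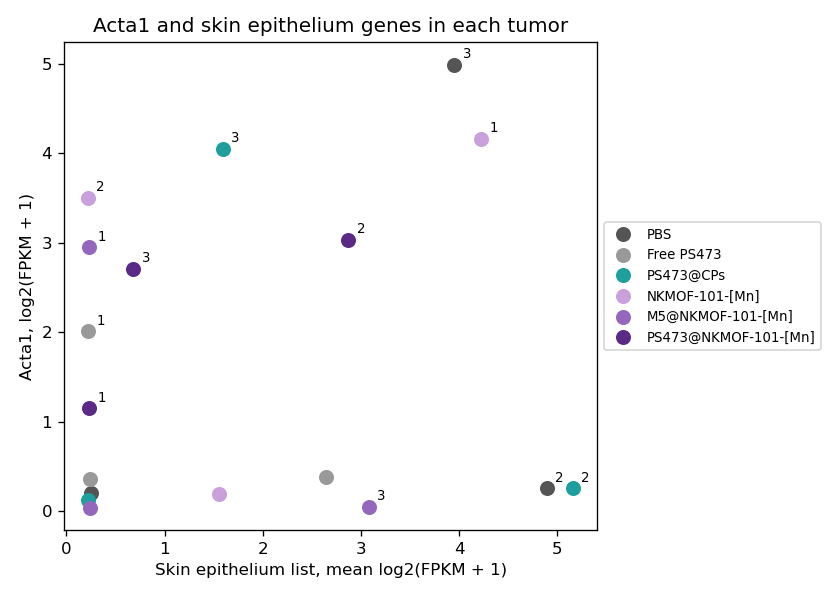
Acta1 as log2(FPKM + 1) (vertical axis) against the mean log2(FPKM + 1) of the skin epithelium list (horizontal axis); each point is 1 tumor, colored by group, and numbers give the tumor for the outer points. All 4 combinations of high or low Acta1 and high or low skin score occur: PBS tumor 2 has a skin score of 4.89 with Acta1 at 0.196 FPKM, and NKMOF-101-[Mn] tumor 2 a score of 0.22 with Acta1 at 10.4 FPKM.

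The other tissue lists had scores of 0.62 to 1.69 for 16 adipocyte genes, led by Pnpla2 (17.9 to 27.2 FPKM), Fabp4 (4.85 to 52.2) and Cfd (0 to 23.0), and of 1.10 to 1.41 for 8 peripheral nerve genes, led by Mbp (20.8 to 38.0) and Cnp (6.55 to 11.0). The 10 smooth muscle and pericyte genes scored 1.23 to 2.91, led by Acta2 (3.37 to 74.5), Rgs5 (4.02 to 24.3) and Smtn (5.59 to 10.3). The 14 leukocyte genes scored 0.79 to 2.10, led by S100a8 (0 to 252), Cd68 (9.60 to 47.0) and Csf1r (1.98 to 18.9). The 10 fibroblast and endothelium genes scored 1.95 to 4.70, led by Col1a1 (13.7 to 292), Col1a2 (7.28 to 164) and Col3a1 (6.13 to 151). The genes tested were 5 of the adipocyte list, 2 of nerve, 7 of smooth muscle and pericyte, 8 leukocyte, 9 of fibroblast and endothelium and 10 melanoma genes. Of each, limma called 0 in the 9 comparisons, as it did of all genes (0%), so these counts do not set the lists apart. At an unadjusted p under 0.05 the largest count was 3 of 8 leukocyte genes tested for PS473@NKMOF-101-[Mn] against NKMOF-101-[Mn] (2.30% of all genes). The median log2 fold change of these 8 genes was -0.83, lower with the loaded carrier. The mature fiber and slow fiber lists had 0 at this threshold. The adipocyte score peaked in NKMOF-101-[Mn] tumor 1.

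Ckm, which had a value in all tumors, was related over the 18 tumors to 6 index genes of other tissues or, for Pax7, of satellite cells. Ckm did not follow Acta1 in every tumor, so these relations are of Ckm alone and do not measure muscle content. Pearson's r was -0.10 for Krt14, 0.36 for Adipoq, -0.24 for Acta2, 0.27 for Pmel, -0.33 for Ptprc and 0.17 for Pax7. Spearman's rho was -0.13, 0.45, -0.07, 0.24, -0.29 and 0.21 in the same order. By permutation the p-values of r adjusted over the 6 relations were 0.521 to 0.698, and those of rho 0.391 to 0.778. Without NKMOF-101-[Mn] tumor 3 and PS473@NKMOF-101-[Mn] tumor 3, which lay farthest from the median of Ckm, r was -0.01, 0.32, -0.13, 0.13, -0.13 and 0.24. The value for Pax7 rests on the 2 tumors in which it was above 0, was 0.04 without PS473@CPs tumor 3, and is read as no test of a relation. None of the other 5 relations passed the threshold, and groups of 3 are too small to repeat it within a treatment.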

How the data were processed

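The authors deposited 1 table of FPKM per gene with gene lengths for 18 tumors. FPKM times length sums to the same total in every tumor, so each value is relative to all assigned fragments. The submitters' processing notes name build GRCm39, and the aligner, counter and annotation are not given in the sources used here. The 36 genes and the lists were chosen with earlier results of these data known. Depth was read from the commonest low value of each tumor. Of the low values, 98.2% to 99.0% were then close to multiples of 0.25 fragment. Only 47.3% to 51.4% were within 0.02 of a whole fragment, so no count test was run. Groups of 3 tumors came from the labels, which do not say that each tumor came from a separate mouse, so p-values measure only the spread between these samples.

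Limma 3.58.1 in R 4.3.3 was fitted to log2(FPKM + 1) for the 12357 genes averaging 1 FPKM or more, with 6 group means, a mean-variance trend and Benjamini-Hochberg adjustment over all genes. Fold changes are on this scale and understate changes of low genes. Correlations used 100000 permutations. All 36 genes were named by role, with every tumor's value for 10 of them, and the 3 most abundant genes of each other list and the 6 index genes were named, except items that are not reported here. The fit and the correlation were tested on simulated data. Alternatives were another pseudocount, other filters, other scalings, array weights, a replicate block and each tumor left out. Promoters and lengths came from RefSeq GRCm38.p6 and GENCODE M21 by symbol.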

Additional observations from a re-analysis of the deposited data

How the results depend on the processing

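The number of the 36 genes called was 0 in every comparison under all alternatives tried except 1. With array weights, 1 of them, Pygm, was called for any difference among the 6 groups (limma, adjusted p = 0.0181; the weights were 0.206 to 17.1, and their estimation gave a warning of no convergence), as were 18.7% of the 12357 genes tested. Array weights also moved the median log2 fold change of PS473@NKMOF-101-[Mn] against Free PS473 to -0.15, from 0.19; the cause was not tested. The other 134 medians moved by less than the spread used to judge them, the larger within-group standard deviation of the tested genes' mean level. That spread is wide where 1 tumor is far above the others, so this count says little. Over the processing alternatives the median against PBS ran from -0.66 to 0.02 for PS473@NKMOF-101-[Mn] and from -0.73 to -0.16 for M5@NKMOF-101-[Mn]. For PS473@NKMOF-101-[Mn] it ran from -0.54 to 0.00 against PS473@CPs and from -0.12 to 0.37 against M5@NKMOF-101-[Mn]. Of the 9 medians, none called, 7 changed sign when some single tumor was left out; those of PS473@NKMOF-101-[Mn] against Free PS473 (0.16 to 0.33) and against M5@NKMOF-101-[Mn] (0.02 to 0.48) did not. Without PBS tumor 3 the median against PBS became 0.23 for PS473@NKMOF-101-[Mn], 0.12 for Free PS473 and 0.20 for M5@NKMOF-101-[Mn], and without PS473@CPs tumor 3 it became -0.44 for PS473@CPs against PBS and 0.26 for PS473@NKMOF-101-[Mn] against PS473@CPs. Without NKMOF-101-[Mn] tumor 1 it became 0.12 for PS473@NKMOF-101-[Mn] against that group and -0.06 for that group against PBS. As a share of summed FPKM in place of fragments the 36 genes took 0.0115% to 0.0378% of a tumor. The replicate numbers did not pair the tumors: deviations of same-numbered tumors correlated from -0.73 to 0.72, and no comparison had every pair over 0.1. With the replicate block, 0 genes were called and the medians were -0.39 to 0.20. The correlations of Ckm kept an adjusted p of 0.321 to 0.941. Depth limits the 17 genes at 0 in some tumor, since a few fragments decide their values.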

Other observations

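Outside the lists, 5 genes that were highest in PBS tumor 3, as Acta1 was, were picked after their values were seen, so they are given as values only. H19, an imprinted noncoding RNA expressed in developing muscle and other embryonic tissues, ranged from 0.0308 FPKM to 6.19 FPKM, highest in PBS tumor 3. Csrp3, the muscle LIM protein of the Z disc, was at 0 in 10 tumors and reached 1.70 FPKM in the same tumor. Sln encodes sarcolipin, an inhibitor of the calcium pump, and was at 0 in 11 tumors with a highest level of 1.71 FPKM, also in PBS tumor 3. Hspb7, a small heat shock protein of striated muscle, reached 0.755 FPKM, and Ankrd1, a stretch-responsive ankyrin repeat protein, reached 1.40 FPKM, both in PBS tumor 3.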
